A study of Mus musculus with 6 samples.

Results

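The Crisp genes encode cysteine-rich secretory proteins, and mouse has 4 of them, Crisp1, Crisp2, Crisp3 and Crisp4. They were chosen by name in the platform annotation of the arrays. Crisp2 and Crisp3 each had 1 annotated probe, and no probe was annotated Crisp1 or Crisp4. Values could thus be assigned to 2 of the 4 genes, out of 18532 genes named on the arrays. Crisp2 was highest in testis, intermediate in epididymis and lowest in the stromal vascular fraction (SVF) of fat. Crisp3, read from the probe annotated with that name, was highest in epididymis.

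A CRISP protein joins an N-terminal CAP domain, shared with a wider superfamily, to a C-terminal cysteine-rich domain that can act on ion channels. In mouse, CRISP2 is made by developing spermatids and is built into the acrosome and the flagellum. CRISP1 and CRISP4 are secreted by the epididymal epithelium under androgen and bind passing spermatozoa. CRISP3 was described mainly in salivary gland and in cells of the B lineage.

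Total RNA from mouse testis, epididymis and SVF was compared on 6 two-colour arrays, and the series lists 3 RNA samples in all, 1 for each tissue. Every pair of tissues was hybridised with the Cy3 and Cy5 dyes in both orientations, giving 3 dye swaps. The labels give no strain, age, treatment or number of animals. Each value below is a log2 ratio of the first-named tissue over the second, so 1 stands for 2-fold, and "array 1" of a comparison has the first-named tissue in Cy5 while "array 2" has it in Cy3. The base of the logarithm and the direction of the ratio are not stated, and base 2 and Cy5 over Cy3 were taken. The direction is therefore likely rather than known, and folds depend on the base. As deposited, the arrays with exchanged dyes correlated below 0 across all 25344 probes. Pearson's r was -0.86 in the pair of testis with SVF, -0.64 in that of epididymis with SVF, and -0.77 in that of epididymis with testis.

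With 1 RNA sample per tissue no test between tissues was possible. A size rule was used instead, under which a gene is called higher in 1 tissue of a pair if each of the 2 arrays shows a difference of 2-fold or more that way. Errors are the SD of the 2 arrays (n = 2 hybridisations of the same RNAs), and they leave out differences between animals. In whole tissues, fewer cells of a type and less RNA per cell cannot be told apart.

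The tissue labels were set against marker lists. By the size rule, testis exceeded SVF for 24 of 25 late spermatid genes, against 20.7% of all named genes. Epididymis exceeded SVF for 11 of 13 epithelial genes, against 10.2%, and exceeded testis for 12 of them, against 14.3%. Of 11 stromal, endothelial and leukocyte genes of SVF, 10 were lower in testis than in SVF, against 16% of all named genes. In epididymis 9 were lower than in SVF, against 8.68%.

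The sequences around the gene starts are shown because Crisp1, which had no annotated probe, and Crisp3 are close to identical there. Crisp1, Crisp2 and Crisp3 lie together on mouse chromosome 17, while Crisp4 lies on chromosome 1. RefSeq promoters on GRCm38.p6, each 300 bases on the minus strand and ending 50 bases into the transcript, were available for all 4 genes. Crisp3 (chr17:40242239-40242538) and Crisp1 (chr17:40319158-40319457) are shown with their differing bases in capitals.
Crisp3: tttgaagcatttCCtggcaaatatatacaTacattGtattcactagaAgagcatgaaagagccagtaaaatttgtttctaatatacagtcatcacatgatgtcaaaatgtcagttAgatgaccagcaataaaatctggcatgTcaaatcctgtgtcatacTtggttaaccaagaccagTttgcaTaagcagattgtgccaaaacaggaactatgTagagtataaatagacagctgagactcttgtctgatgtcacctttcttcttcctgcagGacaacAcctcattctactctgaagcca
Crisp1: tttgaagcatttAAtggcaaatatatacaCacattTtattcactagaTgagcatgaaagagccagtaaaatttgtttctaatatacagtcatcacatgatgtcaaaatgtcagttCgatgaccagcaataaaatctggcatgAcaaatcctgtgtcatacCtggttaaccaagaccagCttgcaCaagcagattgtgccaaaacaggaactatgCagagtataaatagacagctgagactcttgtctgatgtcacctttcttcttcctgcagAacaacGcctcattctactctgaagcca
These promoters matched at 287 of 300 positions without gaps (95.7%). The third gene of the cluster, Crisp2 (chr17:40794097-40794396), is shown with the TATAAA hexamer of the TATA box, on either strand, in capitals.
Crisp2: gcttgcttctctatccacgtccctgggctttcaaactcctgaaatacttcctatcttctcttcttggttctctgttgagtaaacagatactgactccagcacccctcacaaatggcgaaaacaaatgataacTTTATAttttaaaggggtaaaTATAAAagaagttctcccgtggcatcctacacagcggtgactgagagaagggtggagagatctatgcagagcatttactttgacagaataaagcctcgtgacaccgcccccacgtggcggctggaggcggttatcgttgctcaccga
Position by position, without gaps, it matched Crisp3 at 81 of 300 bases (27%) and Crisp1 at 87 (29%), and Crisp4 matched Crisp3 at 69 (23%).

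The Crisp2 promoter differed from those of Crisp1 and Crisp3 in where TATAAA stood. With the annotated start base counted as 0, TATAAA began at -31 in both Crisp1 and Crisp3. In Crisp2 it began at -97, with its reverse complement TTTATA at -118, and Crisp4 had neither. Among 32851 promoters of this length, 13.6% held TATAAA on either strand. The hexamer TGTTCT of the androgen response element, or its reverse complement AGAACA, was found in Crisp1 at 20 and in Crisp4 at -217. Neither form was found in Crisp2 or Crisp3, and 19% of all promoters held it. In Crisp1 the AGAACA covers a base that differs from Crisp3. The core TGACGT of the cyclic AMP response element, or ACGTCA, was found in none of the 4 promoters, against 7.51% of all promoters. These matches describe letters in these windows only.

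Crisp2 was higher in testis than in SVF. Its log2 ratio was 5.73 on array 1 and 3.97 on array 2. Both arrays were far above the 2-fold line, and the array with testis RNA in Cy5 gave the larger value. The mean was 4.85 ± 1.25 (SD, n = 2), a 28.8-fold difference, and 290 genes had a higher mean ratio. By the same rule, 20.7% of all named genes were called for testis and 16% for SVF.

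Crisp2 was also higher in epididymis than in SVF. Its ratio was 2.66 on array 1 and 2.54 on array 2, so the 2 orientations were close. The mean was 2.60 ± 0.09 (SD, n = 2), or 6.06-fold. Calls for epididymis took in 10.2% of all named genes, and calls for SVF 8.68%.

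Between the 2 reproductive tissues, Crisp2 was lower in epididymis. Its ratio of epididymis over testis was -2.55 on array 1 and -3.39 on array 2. The mean was -2.97 ± 0.60 (SD, n = 2), which is 7.83-fold higher in testis. Calls for epididymis took in 14.3% of all named genes, and calls for testis 18%.

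Crisp3 was higher in epididymis than in both other tissues. Over SVF its ratio was 8.12 on array 1 and 4.51 on array 2. Both values were large, but they differed by 3.62 from each other, which corresponds to 279-fold and 22.8-fold. The mean was 6.32 ± 2.56 (SD, n = 2), or 79.7-fold, and ranked at number 11 of the 18532 genes. The SD between arrays was larger than that of 99.4% of all genes, and larger than that of 97.1% of the 209 genes whose mean ratio in this comparison was at least 4 in size. The arrays thus had the same direction but very different sizes.

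Over testis, the Crisp3 ratio of epididymis was 4.41 on array 1 and 4.31 on array 2. These orientations were almost the same. The mean was 4.36 ± 0.07 (SD, n = 2), or 20.6-fold, and 81 genes had a higher mean. This was the smallest SD of the 3 Crisp3 comparisons.

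Between testis and SVF, Crisp3 had a ratio of 2.30 on array 1 and 0.70 on array 2. Only the array with testis RNA in Cy5 reached 2-fold. The mean was 1.50 ± 1.14 (SD, n = 2), and Crisp3 was not counted as higher in either tissue. Crisp2 was therefore the only Crisp gene of the 2 measured that met the rule for testis over SVF, both met it for epididymis over SVF, and they met it in opposite directions for epididymis over testis.

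**Figure D1:**
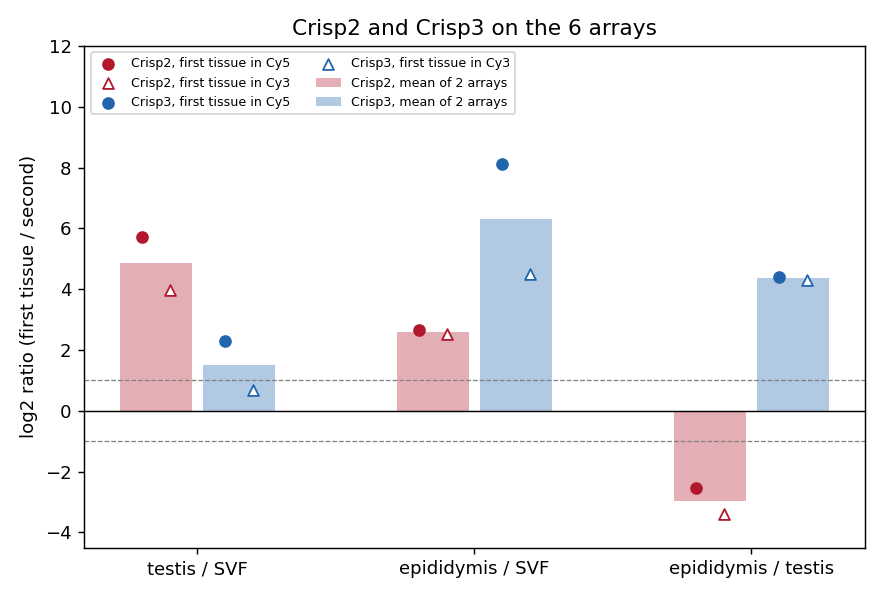
Log2 ratios (y axis) of Crisp2 in red and Crisp3 in blue in the 3 tissue comparisons (x axis). Bars are means of 2 arrays, filled circles are arrays with the first tissue in Cy5, open triangles are arrays with it in Cy3, and dashed lines mark 2-fold. Epididymis over testis is -2.97 for Crisp2 and 4.36 for Crisp3, while the Crisp3 points for epididymis over SVF lie 3.62 apart.

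All 6 arrays together gave 1 estimate for each tissue, fitted by least squares around the loop and expressed on the log2 scale relative to the mean of the 3 tissues. For Crisp2 the estimates were 2.61 in testis, -0.12 in epididymis and -2.48 in SVF, with a residual SD of 0.75 (n = 6 arrays). The steps of 2.73 from epididymis up to testis and of 2.36 from SVF up to epididymis both exceeded this residual. For Crisp3 the estimates were 3.56 in epididymis, -0.95 in testis and -2.61 in SVF, with a residual SD of 1.41 (n = 6 arrays). The 4.51 between epididymis and testis exceeded it clearly, whereas the 1.65 between testis and SVF was little more than the residual SD. The residual SD describes single arrays around the fit, and the error of a step between estimates is not given here. Leaving out each array in turn kept the order of tissues for both genes.

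The direct and indirect paths of the loop can be compared. For Crisp2, epididymis over SVF was 1.88 when summed through testis and 2.60 directly. For Crisp3 it was 5.86 through testis and 6.32 directly. The gaps of 0.72 and 0.45 were larger than those of 85.5% and 72.6% of named genes, in the order Crisp2, Crisp3.

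Array 1 exceeded array 2 in all 3 comparisons for both Crisp genes. The gaps were 1.77, 0.13 and 0.85 for Crisp2 and 1.61, 3.62 and 0.10 for Crisp3, in the order testis over SVF, epididymis over SVF and epididymis over testis. Of all named genes, 39.1% had this sign pattern and 21.2% had the opposite. Dye orientation and the single array cannot be told apart here, and their part in the size of the Crisp ratios was not tested.

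The contrast between the pair was also read within single arrays. Crisp3 minus Crisp2, as a difference of log2 ratios, was 6.96 and 7.71 on the arrays of epididymis over testis, with a mean of 7.33 ± 0.53 (SD, n = 2). For testis over SVF it was -3.43 and -3.27, with a mean of -3.35 ± 0.11. For epididymis over SVF it was 5.46 and 1.97, so the sign held on both arrays but the size did not.

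Whether the probe annotated Crisp3 sets Crisp3 RNA apart from Crisp1 RNA is not known here. The probe sequences were not analysed, and the Crisp1 and Crisp3 genes are close copies at least around their starts. Whether Crisp1 transcripts contributed to the signal of the probe annotated Crisp3 was not tested, so the Crisp3 values are those of the probe.

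Crisp2 was next read against the late spermatid genes, since the mouse gene is known as a spermatid gene. Its testis over SVF ratio was above 22 of the 25 list members, whose median was 3.54 and whose range ran from 2.13 to 5.77. Over all genes the median was 0.00. Its epididymis over SVF ratio of 2.60 was above 23 of 25, with a list median of 1.52. Epididymis exceeded SVF for 14 of these 25 genes, against 10.2% of all named genes. For epididymis over testis, -2.97 for Crisp2 stood in the middle of the list, with 13 members below, 12 above and a median of -2.99. In that comparison 21 members were higher in testis, against 18% of all named genes. Spermatozoa are stored in the epididymis, and whether the Crisp2 signal of epididymis came from them or from duct cells was not tested.

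The full Crisp2 order, with testis at least 2-fold above epididymis and epididymis at least 2-fold above SVF on both arrays, was shared by 626 of 18532 genes (3.38%). In the late spermatid list, 12 of 25 genes showed it. They included Akap4 of the fibrous sheath, Odf1 and Odf2 of the outer dense fibres and Acrv1 of the acrosome. Other genes of the same sperm structures did not meet it, among them Odf4, Acr, Acrbp, Spaca3, Spaca4, Spam1, Zpbp, Zpbp2 and Izumo1. The protamine and transition protein genes Prm1, Prm2, Tnp1 and Tnp2 also missed it, though their mean ratios had the same signs as those of Crisp2. For epididymis over testis, array 1 fell short of 2-fold in each, from -0.17 for Prm2 to -0.95 for Prm1. Array 2 ran from -2.34 for Prm2 to -3.08 for Prm1.

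Likeness over the 6 arrays was measured as the root mean square difference of log2 ratios. The gene most like Crisp2 was Tekt2, a tektin of the sperm flagellum, at 0.28. It was followed by Odf1 at 0.35, Mael, a gene of the germline piRNA pathway, at 0.37, Dbil5, which encodes an endozepine-like peptide, at 0.39 and the allantoicase gene Allc at 0.40. For Tekt2 the mean ratios were 4.85 for testis over SVF, 2.76 for epididymis over SVF and -2.99 for epididymis over testis, against 4.85, 2.60 and -2.97 for Crisp2.

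The genes most like Crisp3 were further away. Odam, first known from tooth-forming cells, stood at 0.74. The keratin gene Krt23 stood at 1.04, Cuzd1 at 1.06, the defensin-like sperm protein gene Spag11a at 1.11 and the serpin gene Serpina1f at 1.14. Odam had the same kind of gap between arrays, with 5.87 ± 2.88 (SD, n = 2) for epididymis over SVF and 4.73 ± 0.90 for epididymis over testis. Crisp2 and Crisp3 themselves were 5.23 apart on this measure.

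**Figure D2:**
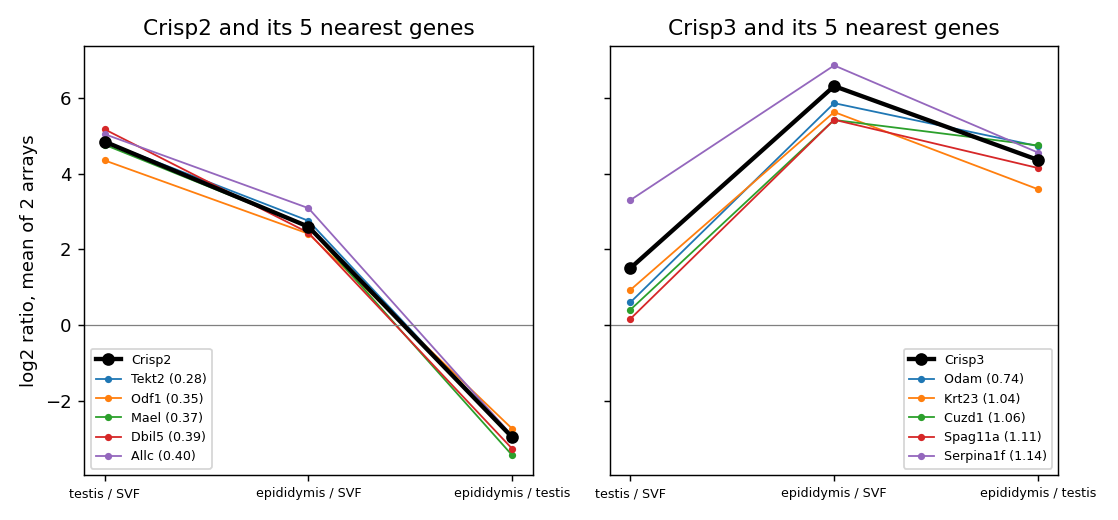
Mean log2 ratios (y axis) of Crisp2 (left) and Crisp3 (right) in black and of the 5 genes nearest to each in colour, over the 3 comparisons (x axis). The number beside a gene is its root mean square difference from the Crisp gene over 6 arrays. The Crisp2 neighbours lie within 0.28 to 0.40 of it, and those of Crisp3 within 0.74 to 1.14.

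Crisp3 was read against genes whose products are secreted into the epididymal lumen and coat sperm. All 17 measured members were called for epididymis, both over SVF (median 4.10) and over testis (median 3.69). Of all named genes, 10.2% and 14.3% were called so. Crisp3 stood above 14 of 17 for epididymis over SVF and above 12 of 17 for epididymis over testis. Rnase10, Spint4 and Lcn9 stood above it in both, with 7.24 ± 1.71, 7.29 ± 1.32 and 6.88 ± 2.93 over SVF and 6.11 ± 0.38, 6.87 ± 0.57 and 5.74 ± 1.68 over testis (SD, n = 2). Its placement in epididymis above both other tissues was shared by 805 genes (4.34%) by the same rule. For testis over SVF the list had a median of -0.04, and Crisp3 stood above 14 of 17. In that comparison 4 members were called for testis and 3 for SVF, against 20.7% and 16% of all named genes.

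The median gap between arrays in this list was 1.85 for epididymis over SVF, against 0.14 over all genes. Crisp3, with 3.62, thus had a gap of the same sign as the list and larger. For late spermatid genes the largest median gap was 1.49 and fell in testis over SVF, where Crisp2 also had its largest gap.

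**Figure D3:**
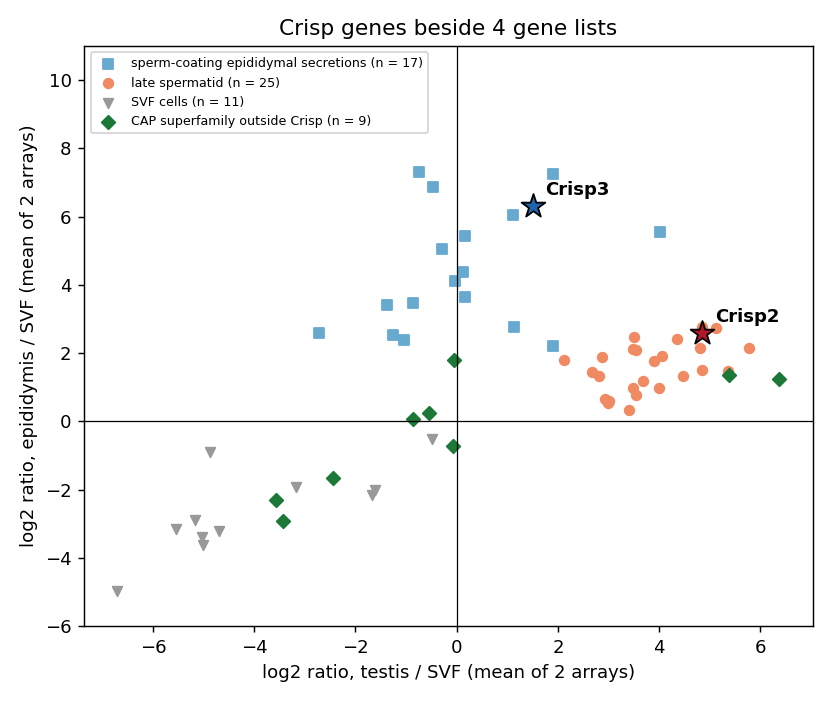
Mean log2 ratio of epididymis over SVF (y axis) against testis over SVF (x axis), each the mean of 2 arrays, for 4 gene lists and for Crisp2 and Crisp3 as stars. Crisp2, at 4.85 and 2.60, lies among the 25 late spermatid genes, and Crisp3, at 1.50 and 6.32, lies among the 17 sperm-coating secretion genes.

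Crisp3 was also read against genes of B lineage cells, where mouse CRISP3 was described, and of neutrophil granules. Epididymis above both other tissues, as for Crisp3, was met by none of 9 B lineage genes and by 2 of 12 neutrophil granule genes, against 4.34% of all named genes. Testis was below SVF for 7 of 9 B lineage genes, against 16% of all named genes, and epididymis for 3 of 9, against 8.68%. None of these 9 was called the other way. Their median ratios were -1.70 for testis over SVF, -0.86 for epididymis over SVF and 0.88 for epididymis over testis. In the last comparison 3 were higher in epididymis, against 14.3% of all named genes. Crisp3 lay above all 9 in each comparison. Of 12 neutrophil granule genes, 2 were called for epididymis over SVF and 4 for SVF (median -0.75), against 10.2% and 8.68% of all named genes. These 2 were the lipocalin gene Lcn2 (3.60 ± 1.05, SD, n = 2) and the lactoferrin gene Ltf (2.67 ± 0.78), and both were also higher in epididymis than in testis, as Crisp3 was. Lcn2 was in addition higher in testis than in SVF (1.90 ± 0.19). The 4 called for SVF over epididymis were S100a9 (-4.64 ± 0.85), S100a8 (-2.81 ± 0.97), Mmp9 (-2.41 ± 0.21) and Camp (-1.42 ± 0.14). For testis over SVF, 1 of the 12 was called for testis and 4 for SVF (median -0.81), against 20.7% and 16% of all named genes. For epididymis over testis 4 were higher in epididymis (median 0.25), against 14.3%.

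Genes of androgen signalling and epididymal transcription factors were read because mouse Crisp1 and Crisp4 depend on androgen. Of 10 listed, 7 were measured. The transcription factor genes Pax8 and Hoxb6 were higher in epididymis than in both other tissues, as Crisp3 was. Pax8 stood at 3.23 ± 0.76 over SVF and 3.02 ± 0.32 over testis, and Hoxb6 at 4.40 ± 0.52 and 6.92 ± 0.06 (SD, n = 2). The androgen-induced immunophilin gene Fkbp5 was 2.68 ± 0.26 for epididymis over testis and met the rule there. The list medians were -0.64 for testis over SVF, 0.46 for epididymis over SVF and 1.00 for epididymis over testis.

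Of the channels and binding partners of CRISP proteins, 2 of 13 measured genes, Catsper2 and Efcab9, had the full Crisp2 order, against 3.38% of all named genes. Of 17 listed genes, 13 were measured. For testis over SVF 8 were higher in testis, against 20.7% of all named genes, none in SVF and 5 in neither (median 1.65). For epididymis over testis 7 were higher in testis, against 18% of all named genes, and none in epididymis (median -1.44). Those higher in testis included the sperm calcium channel genes Catsper1, Catsper2 and Catsper3, with testis over SVF ratios of 4.38 ± 1.17, 4.75 ± 1.25 and 4.30 ± 0.34 (SD, n = 2). The calcium sensor gene of that channel, Efcab9, stood at 6.06 ± 0.35, the only member above Crisp2. Ggn, whose germ cell product binds CRISP2, stood at 3.03 ± 0.05. For epididymis over SVF, Catsper2 (1.70 ± 0.46) and Efcab9 (2.77 ± 0.07) were higher in epididymis, against 10.2% of all named genes. None was higher in SVF and 11 met the rule in neither direction (median 0.50).

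The ryanodine receptor genes Ryr1, Ryr2 and Ryr3 belong to a channel family on which CRISP2 can act. They had testis over SVF ratios of -0.26 ± 0.54, -0.06 ± 0.11 and 0.80 ± 0.78 (SD, n = 2). Map3k11, a kinase gene whose product binds CRISP2, stood at -0.33 ± 0.01. Trpm8, a cation channel gene whose channel mouse CRISP4 can inhibit, was 1.28 ± 0.90 for testis over SVF and did not meet the rule, while it was higher in testis than in epididymis (-1.44 ± 0.03). None of these 5 genes met the rule for epididymis over SVF.

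CAP superfamily genes outside the Crisp family differed from each other in tissue pattern. Of 11 listed, 9 were measured. For testis over SVF 2 were called for testis and 3 for SVF, against 20.7% and 16% of all named genes. For epididymis over SVF 2 were called for epididymis and 3 for SVF, against 10.2% and 8.68%. For epididymis over testis 1 was called for epididymis and 2 for testis, against 14.3% and 18%. With 9 genes, the calls for testis are near the share over all genes. The Crisp2 order was met by 1 of the 9, against 3.38% of all named genes. The Crisp2 order was shared by Glipr1l1, a sperm glioma pathogenesis-related gene, which stood at 6.28 and 4.47 on the arrays of testis over SVF, 1.50 and 1.19 for epididymis over SVF and -3.43 and -4.78 for epididymis over testis. Its paralogue Glipr1l2 was higher in testis than in SVF (6.38 ± 0.55, SD, n = 2) and than in epididymis (-4.55 ± 0.15). On the arrays of epididymis over SVF it stood at 0.92 and 1.55 and missed the rule. Both had larger testis ratios than Crisp2.

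Of the 9 measured CAP genes outside Crisp, 1 met the rule in epididymis over both other tissues, against 4.34% of all named genes. It was Clec18a, which joins a CAP domain to a lectin domain. Its ratios were 2.35 and 1.26 over SVF and 2.12 and 1.72 over testis, smaller than those of Crisp3 on every array.

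The remaining CAP genes were not of the Crisp order. Crispld2, Glipr1 and Glipr2 were higher in SVF than in testis, with -2.43 ± 0.35, -3.56 ± 0.02 and -3.44 ± 0.86 (SD, n = 2), and higher in SVF than in epididymis, with -1.67 ± 0.40, -2.32 ± 0.17 and -2.91 ± 0.23. For epididymis over testis the arrays of Glipr1 disagreed in sign, at -1.87 and 1.78. Crispld1, Pi15 and Pi16 met the rule in no comparison, and their means lay between -0.86 and 0.83. The list medians were -0.54 for testis over SVF, 0.08 for epididymis over SVF and 0.45 for epididymis over testis, against 0.00, 0.07 and 0.00 over all genes.

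**Figure D4:**
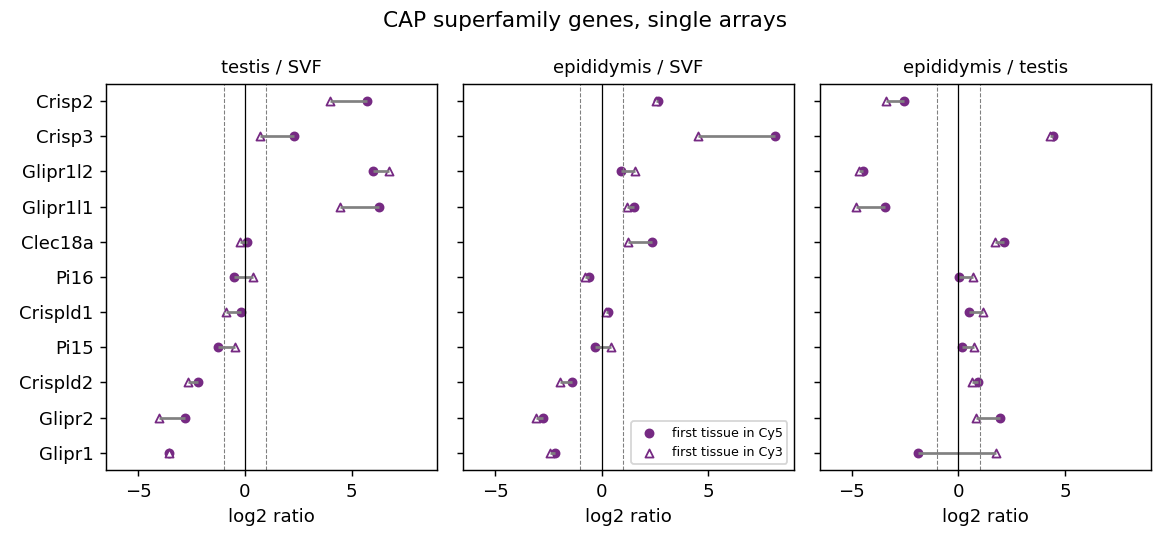
Log2 ratios (x axes) on the single arrays of Crisp2, Crisp3 and 9 other CAP superfamily genes (rows) in the 3 comparisons (panels). Filled circles have the first tissue in Cy5, open triangles have it in Cy3, a grey line joins the arrays of a gene and dashed lines mark 2-fold. Crisp3 has the largest epididymis ratios of these genes, and Glipr1l2 and Glipr1l1 lie with or beyond Crisp2 in testis.

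Genes beside the Crisp loci in the RefSeq gene order were read to see whether the tissue pattern extended to neighbours. Of the 10 measured genes nearest to the cluster on chromosome 17, 5 on each side, 2 were higher in testis than in SVF, against 20.7% of all named genes. For epididymis over SVF 2 were called for epididymis, against 10.2%, and for epididymis over testis 2 were called for testis, against 18%. With 10 genes, 2 calls are near the share over all genes in the comparisons with testis. Next to the cluster at its Crisp3 end, not its Crisp2 end, Pgk2, the phosphoglycerate kinase of spermatids, had the Crisp2 order. Its ratios were 5.59 ± 1.13 for testis over SVF, 2.60 ± 0.86 for epididymis over SVF and -3.66 ± 0.62 for epididymis over testis (SD, n = 2). On the other side, at the Crisp2 end, the Rhag gene of red cell membranes met the rule in no comparison. Beyond Rhag, the centromere gene Cenpq was higher in testis than in SVF (2.38 ± 0.61) and than in epididymis (-1.54 ± 0.15). Beyond Cenpq, the mitochondrial enzyme gene Mmut was higher in epididymis than in SVF (1.28 ± 0.38). The olfactory receptor genes Olfr136, Olfr137, Olfr133 and Olfr131 met it in none. No neighbour on chromosome 17 was higher in epididymis than in testis, as Crisp3 was, against 14.3% of all named genes. With 10 genes, the absence of such a call is near that share.

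No probe was annotated Crisp4, but its neighbours had annotated probes. Crispld1 and Pi15, both CAP genes, are the nearest measured genes on the lower-coordinate side. On the other side the beta-defensin gene Defb41 was higher in epididymis than in SVF (3.98 ± 0.26, SD, n = 2) and than in testis (3.74 ± 0.38), and the transcription factor gene Tfap2b was too (2.92 ± 1.31 and 2.66 ± 0.05). Other neighbours were high in testis, as 4930486I03Rik was -3.68 ± 0.88 and the junctophilin gene Jph1 was -3.16 ± 1.56 for epididymis over testis. Of the 10 measured neighbours of Crisp4, 3 were called for epididymis over SVF, 4930486I03Rik among them, and none for SVF, against 10.2% and 8.68% of all named genes. For epididymis over testis 3 were called for epididymis and 2 for testis, against 14.3% and 18%, and for testis over SVF 3 were called for testis and 1 for SVF, against 20.7% and 16%.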

How the data were processed

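Total RNA of 3 mouse tissues was measured on 6 two-colour arrays. The deposited table holds 1 value per probe and array, read here as a log2 ratio of the channels. How the authors corrected background and normalized, and which base and direction they used, is not stated in the labels. Spot intensities were not used here, so probes near background could not be told from brighter ones, and precision is limited by the 6 arrays. Ratios near background can be too small or unstable.

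Ratios were taken as Cy5 over Cy3, the order of tissues in the titles, and values of arrays with exchanged dyes were multiplied by -1. Of 21112 annotated probes, 20456 were named by gene ID through the GRCm38.p6 gene table, 220 by symbol and 235 by the annotated name, while 171 with non-mouse symbols and 30 with several genes were not named. A further 4232 of the 25344 probes had no annotation. A Crisp probe among these or the unnamed probes would have been missed. A gene's value was the mean of its probes. Python 3.11.15, pandas 2.3.3 and numpy 2.4.6 were used. The size rule was run on simulated data with the same noise level for all genes of a comparison, and the loop fit on simulated data without noise. These runs check the code and do not measure the error of the Crisp values.

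Members and lists were chosen with earlier results of these data known. Named were all Crisp probes, the 5 nearest genes by root mean square difference, all CAP genes, list members with large ratios, and the 5 nearest measured genes on each side of a Crisp locus. Individual markers, partners and pattern-sharing list genes beyond that rule were named after their values were seen. Alternatives were array centring, the loop estimate, single arrays, single probes, other size rules, genes measured on all 6 arrays and natural logarithms.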

Additional observations from a re-analysis of the deposited data

How the results depend on the processing

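Directions of all Crisp2 and Crisp3 ratios were the same under every alternative tried. The Crisp2 estimate in epididymis, -0.12 relative to the mean of the 3 tissues, became 0.04 without array 2 of epididymis over testis. The count of Crisp genes higher in testis than in SVF was 1 as reported (Crisp2) and 2 with Crisp3 by the loop estimate, by 2-fold on the mean of the 2 arrays, with values read as natural logarithms, and on array 1 alone, where single arrays gave 1 to 2. The other Crisp counts did not change, at 2 to 2 higher in epididymis than in SVF and 1 to 1 in each direction of epididymis over testis with single arrays. By single arrays, Crisp2 ran from 3.97 to 5.73 for testis over SVF, from 2.54 to 2.66 for epididymis over SVF and from -3.39 to -2.55 for epididymis over testis. Crisp3 ran from 0.70 to 2.30, from 4.51 to 8.12 and from 4.31 to 4.41 in the same order. By the loop estimate, Crisp2 stood at 2.36 for epididymis over SVF and Crisp3 at 4.51 for epididymis over testis. Read as natural logarithms, the log2 ratios would be 6.995, 3.75 and -4.28 for Crisp2 and, for epididymis over SVF and epididymis over testis, 9.11 and 6.29 for Crisp3.

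With 1 array left out, tissue estimates for Crisp2 ran from 2.44 to 2.89 in testis, -0.20 to 0.04 in epididymis and -2.76 to -2.32 in SVF. Those for Crisp3 ran from 3.07 to 3.97 in epididymis, -1.12 to -0.72 in testis and -3.02 to -2.12 in SVF. Over all named genes, 4-fold on both arrays gave 2245 higher in testis and 1410 in SVF, 500 in epididymis and 675 in SVF, and 926 in epididymis and 1781 in testis. Single arrays gave 4813 to 4876 and 3965 to 4017, 3198 to 3216 and 2668 to 2702, and 3664 to 3763 and 4477 to 4505 genes in that order. Calling from 1 array in place of 2 asks for less, which raises a count by construction. No paired analysis was possible because each tissue is 1 RNA sample.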
